A study of Mus musculus with 14 samples.

Results

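Hprt, Prps1 and Prps2 are X-linked genes of purine and PRPP (phosphoribosyl pyrophosphate) metabolism, and they are described here together. They were chosen by name, with earlier results of these data known, and their members were the SNPs that lie in mm10 exons of these genes. This gave 3 of the 355 genes with SNPs in exons of exactly 1 gene, and 20 of the 2239 SNPs in the table. Each of them had at least 10 reads in every library, as did 247 genes in all, and these 247 X-linked genes were tested together.

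Prps1 and Prps2 encode isoforms of PRPP synthetase, which makes PRPP from ribose 5-phosphate and ATP. Hprt encodes hypoxanthine phosphoribosyltransferase, which uses PRPP to salvage hypoxanthine and guanine into purine nucleotides. Hprt has long served as a marker of X inactivation, because cells with and without the enzyme can be selected in culture. In X inactivation a female cell silences most genes of one X chromosome, so that reads from the inactive X chromosome (Xi) become few relative to the active one (Xa).

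The RNA came from female ES cells that the labels give as Setdb1+/+ and Xist∆A/+, from 129/C57 dams and CAST sires. In every group the Xist∆A allele was on the 129 X chromosome, so that the CAST X chromosome was the one to be inactivated, and all libraries came from 1 cell line. There were 2 untransduced libraries from day 0 of differentiation, and 2 libraries each from day 3 and day 5 of cells transduced with the non-silencing hairpin (Nons), shSetdb1.4 or shSetdb1.6, which makes 7 conditions and 14 libraries. Setdb1 is a histone H3 lysine 9 methyltransferase, and its own transcript was not analysed here. Transduced cells were selected with puromycin, so day 3 differs from day 0 in transduction, selection and time, and these cannot be told apart in the 14 libraries. The table also has 4 columns with a name of Day3_Un, which match no sample label and were not used here. Nothing in the labels says that replicates came from separate cell lines, so p-values measure only the spread between these libraries. The edgeR fits estimated this spread over all 14 libraries and shared it among genes. It is therefore not the spread of a gene in the 2 libraries of a condition, which can be larger. The reads over all SNPs ranged from 32972 in Nons day 5 replicate 2 to 101511 in shSetdb1.4 day 5 replicate 2. In the latter, 46926 reads were from 129 and 54585 from CAST. The paper states that a further replicate had become XO and was uninformative. It also states that XO cells in this system likely muted the failure of silencing. The part of XO cells in the allele ratios given here was not tested. Nr0b1, a marker of undifferentiated ES cells, had 749 to 1384 of every 100000 reads at day 0, 871 to 1646 at day 3 and 10.6 to 46.7 at day 5. The trophoblast marker Esx1 had 78.5 to 80.3 of every 100000 reads at day 0, 35.7 to 95.9 at day 3 and 20.2 to 25.2 at day 5, and Plac1, another such marker, was not in the table. Whether the change of these markers has a part in the differences between days was not tested.

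Hprt (ENSMUSG00000025630.8, plus strand) lies at chrX:52988137-53021659 of mm10 and had 4 SNPs. From the 5′ end these were G52988159A in the 5′ UTR and C52988227G in the coding part of exon 1, A53016370G in the coding part of exon 6, and G53021504C in the 3′ UTR in exon 9, the last exon. Each token gives the reference base, the mm10 position on chromosome X and the CAST base, both on the plus strand. Prps1 (ENSMUSG00000031432.3, plus strand) lies at chrX:140456613-140476140 and had 6 SNPs, all in the 3′ UTR in exon 7, its last exon. They were C140475262T, A140475440G, G140475799A, T140475900C, G140476002A and C140476022T. Prps2 (ENSMUSG00000025742.5, minus strand) lies at chrX:167346322-167382749 and had 10 SNPs, of which 7 were in the 3′ UTR in exon 7. Its other 3 were coding, among them A167374153G and T167374099C in exon 2. The coding parts of Prps1 and Prps2 are 954 bases each and share 763 of them (80.0%), so reads could in principle move between the genes. None of the 20 windows of 31 bases around the SNPs, with the reference base, had an exact match in an annotated transcript of another gene (0 of 20). Windows with the CAST base, near matches and copies outside annotated transcripts were not searched, so this does not exclude reads from elsewhere.

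For 4 of the coding SNPs the surrounding sequence is printed from the reference transcripts, 5′ to 3′ in the sense of the message. The capital letter marks the SNP, with the base of the reference allele, which for Prps2 is the complement of the plus-strand base in the token.
Hprt C52988227G, exon 1: atgCcgacccgcagtccc
Hprt A53016370G, exon 6: gacactggtaaaacAatgcaaactttgct
Prps2 A167374153G, exon 2: gtgagaggggaagaTgtctacatcatcca
Prps2 T167374099C, exon 2: aacctgatggagctActcatcatgatcaa
The first of these starts at the start codon of Hprt, and the windows of the exon 1 SNPs of Hprt lie within 1 read length of 100 bases of each other.

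The first comparison was between the alleles of undifferentiated cells, where both X chromosomes are active. The Xi/Xa ratio of a gene was (CAST reads + 1)/(129 reads + 1), summed over its SNPs and put on the log2 scale, and a value of 0 means equal reads. At day 0 the log2 ratio of Prps1 was 0.59 and 0.83 in replicates 1 and 2 (748 and 809 reads from the 129 allele, 1124 and 1439 from the CAST allele). That of Prps2 was 0.45 and 0.59 (340 and 294 reads against 464 and 444). That of Hprt was -0.37 and -0.59 (510 and 510 reads against 394 and 339). The PRPP synthetase genes therefore had more CAST reads and Hprt more 129 reads in both libraries. Against equal reads, in the quasi-likelihood test of edgeR adjusted over the 247 genes by Benjamini-Hochberg (written edgeR from here on), the fitted log2 ratio was 0.71 (SE 0.12, edgeR adjusted p = 3.2e-08) for Prps1. It was 0.52 (SE 0.13, edgeR adjusted p = 8.2e-04) for Prps2 and -0.48 (SE 0.13, edgeR adjusted p = 0.00217) for Hprt. A CAST excess was called for 8.1% of the 247 genes and a 129 excess for 14.2%. The fitted ratio of Prps1 was higher than that of 234 genes and that of Prps2 higher than that of 228, whereas 206 genes had a higher ratio than Hprt. The call for Prps2 did not hold without day 0 replicate 1 (0.47, edgeR adjusted p = 0.0951). The call for Hprt did not hold without day 0 replicate 2 (-0.25, edgeR adjusted p = 0.468), nor without its exon 1 SNPs (-0.21, edgeR adjusted p = 0.309).

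Between day 0 and day 3 of the Nons cells the allele ratios of the 3 genes did not pass the test. At day 3 the log2 ratio in Nons was 0.31 and 0.41 for Prps1, 0.55 and 0.22 for Prps2, and -0.46 and -0.46 for Hprt. Both Prps1 libraries were below both day 0 libraries, as for 12.1% of the 247 genes, while those of Prps2 and Hprt overlapped with day 0. The fitted difference was -0.35 (SE 0.17, unadjusted p = 0.0342, edgeR adjusted p = 0.865) for Prps1, -0.16 (SE 0.19) for Prps2 and 0.02 (SE 0.19) for Hprt. edgeR called 0 of the 247 genes (0%), and 11 had an unadjusted p under 0.05. With each library centred on its median gene, the difference of Prps1 was -0.45 and passed the test (edgeR adjusted p = 0.0128).

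**Figure D1:**
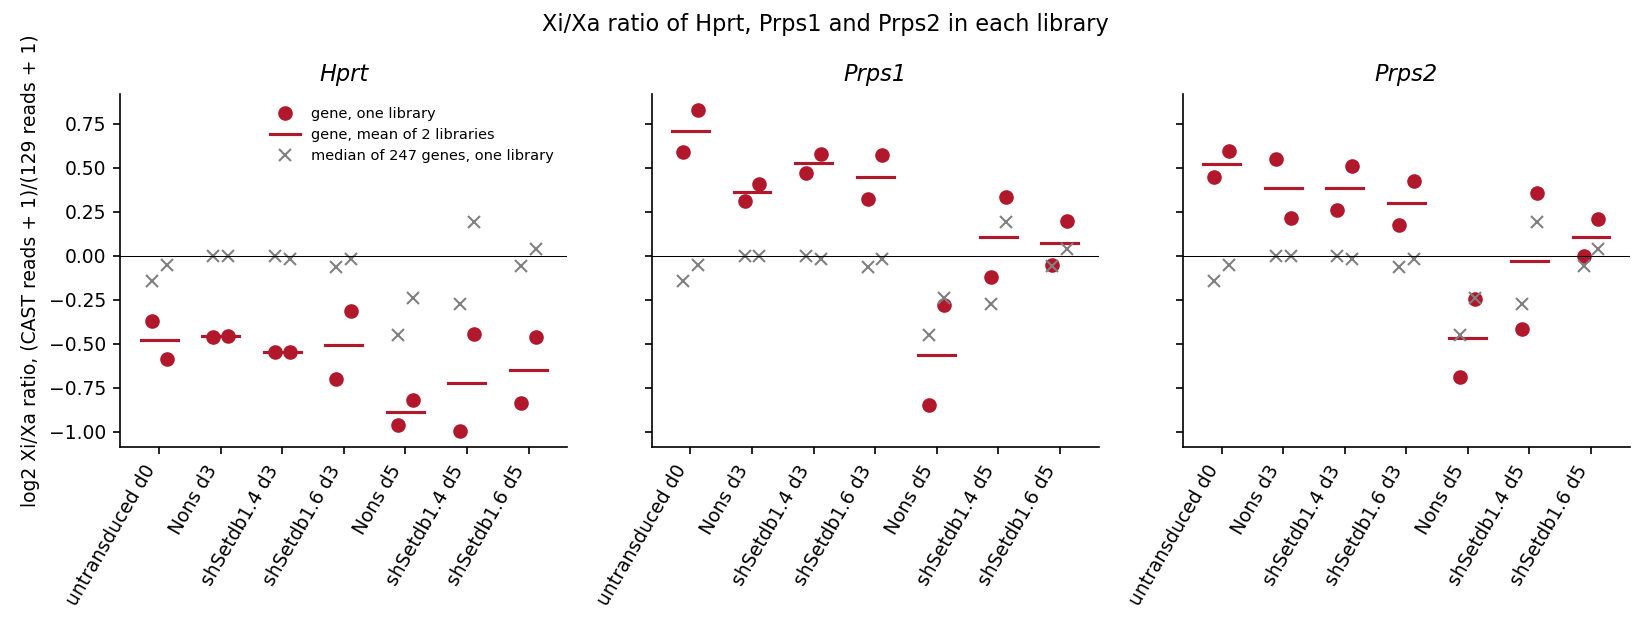
Log2 Xi/Xa ratio (vertical axis, 0 for equal reads) of Hprt, Prps1 and Prps2 in the 14 libraries by condition; points are libraries, lines the means of 2 libraries and crosses the median of the 247 tested genes in the same library. Prps1 and Prps2 lie above 0 at day 0 and day 3 and below 0 in both Nons libraries of day 5, while Hprt lies below 0 in all 14 libraries.

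The loss of CAST reads came between day 3 and day 5, and it was called for both PRPP synthetase genes. In Nons the Prps1 ratio was -0.85 and -0.28 at day 5 (433 and 197 reads from 129, 240 and 162 from CAST), against 0.31 and 0.41 at day 3. The Prps2 ratio was -0.69 and -0.25 at day 5 (361 and 159 reads against 223 and 134), against 0.55 and 0.22 at day 3. The Hprt ratio was -0.96 and -0.82 at day 5 (511 and 227 reads against 262 and 128), against -0.46 and -0.46 at day 3. For each gene both day 5 libraries were below both day 3 libraries, as they were for 46.6% of the 247 genes. Prps1 and Prps2 went from a CAST excess to a 129 excess, whereas Hprt had a 129 excess throughout. The fitted difference was -0.94 (SE 0.18, edgeR adjusted p = 1.53e-05) for Prps1 and -0.85 (SE 0.20, edgeR adjusted p = 9.12e-04) for Prps2. For Hprt it was -0.43 (SE 0.20, unadjusted p = 0.0325) and did not pass the test (edgeR adjusted p = 0.161). The SD of the 2 Nons day 5 log2 ratios was 0.40 for Prps1, 0.32 for Prps2 and 0.10 for Hprt. edgeR called 9.72% of the 247 genes as lower and 0.405% as higher, and the median gene changed by -0.33. These 25 calls in both directions went to 9 with only SNPs of at least 10 reads in every library and to 7 with only the libraries compared. A stronger loss than that of Prps1 was fitted for 23 genes and than that of Prps2 for 26. With each library centred on its median gene the differences were -0.60 for Prps1 (edgeR adjusted p = 8.84e-04), -0.50 for Prps2 (edgeR adjusted p = 0.0395) and -0.076 for Hprt (edgeR adjusted p = 0.9). Both calls were lost without Nons day 5 replicate 1, the library with the lower ratio in both genes. The difference was then -0.76 for Prps1 and -0.72 for Prps2. That fit leaves 1 library in Nons day 5, so the values of this library and the smaller group cannot be told apart. The Prps2 call was also lost without Nons day 3 replicate 1 (-0.52, edgeR adjusted p = 0.277) and when only the 4 libraries compared were fitted (-0.88, edgeR adjusted p = 0.068). Without its exon 1 SNPs, an alternative chosen after the data were seen, the Hprt difference was -0.59 (SE 0.22, edgeR adjusted p = 0.0557).

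The total of both alleles gave the level of each message relative to the 247 tested X-linked genes. It is given in CPM with TMM scaling over these genes, and it is compared within a gene only. A change shared by most of these genes is taken out by the scaling, so falls and rises of totals or single alleles are relative to them. In Nons the total of Prps1 was 28329 and 23733 CPM at day 3 and 8066 and 11292 CPM at day 5. That of Prps2 was 12728 and 13581 CPM at day 3 and 6999 and 9216 CPM at day 5. That of Hprt was 12121 and 9836 CPM at day 3 and 9264 and 11166 CPM at day 5. The totals of Prps1 and Prps2 were lower in both day 5 libraries than in both day 3 libraries, as were those of 37.7% of the 247 genes, and those of Hprt overlapped. Prps1 fell by 1.43 on the log2 scale (SE 0.23, edgeR adjusted p = 6.11e-04) and 8 genes had a lower value, while Prps2 fell by 0.70 (SE 0.20, edgeR adjusted p = 0.0174). The Hprt difference was -0.11 (SE 0.18, edgeR adjusted p = 0.688). edgeR called 13.4% of the genes as lower and 14.6% as higher in this comparison. The Prps2 call was lost without Nons day 5 replicate 1 (-0.51, edgeR adjusted p = 0.115) and without Nons day 3 replicate 2 (-0.66, edgeR adjusted p = 0.0957). In bulk RNA, fewer cells with the message and less message per cell cannot be told apart. From day 0 to day 3 the totals of the 3 genes did not pass the test, with differences of 0.04 (SE 0.22) for Prps1, 0.47 (SE 0.19, edgeR adjusted p = 0.158) for Prps2 and 0.02 (SE 0.18) for Hprt, while 4.45% of the genes were called as higher and 5.26% as lower. With the replicate block the genes called in this comparison went from 24 to 38.

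Split by allele, the fall of Prps1 was on both X chromosomes, and that of Prps2 was called on the CAST allele. These fits used the reads of 1 allele with the scaling of the totals and were added after the totals had been seen. The 129 allele of Prps1 went from 12647 and 10193 CPM in Nons day 3 to 5189 and 6196 CPM in Nons day 5, and the CAST allele from 15682 and 13540 CPM to 2876 and 5095 CPM. Neither allele overlapped between the days, which held with lower values for 26.3% of the 247 genes in 129 reads and 39.7% in CAST reads. The 129 reads fell by 1.01 on the log2 scale (SE 0.20, edgeR adjusted p = 0.00285) and the CAST reads fell by 1.89 (SE 0.31, edgeR adjusted p = 4.13e-04). For Prps2 the 129 allele went from 5160 and 6283 CPM to 4327 and 5001 CPM, and the CAST allele from 7568 and 7298 CPM to 2673 and 4215 CPM, again with no overlap in either allele. For Hprt the CAST allele went from 5099 and 4143 CPM to 3140 and 4026 CPM without overlap, and its 129 reads overlapped (7022 and 5693 CPM against 6124 and 7140 CPM). The 129 reads of Prps2 differed by -0.30 (SE 0.19, edgeR adjusted p = 0.253), and its CAST reads fell by 1.13 (SE 0.28, edgeR adjusted p = 0.00879). For Hprt neither allele passed the test, with 0.06 (SE 0.20, edgeR adjusted p = 0.86) for 129 and -0.37 (SE 0.24, edgeR adjusted p = 0.274) for CAST. The 129 reads were called as lower for 5.26% and as higher for 11.7% of the genes, and the CAST reads as lower for 15% and as higher for 9.31%. Without Nons day 5 replicate 1 the CAST difference of Prps2 was -0.82 (edgeR adjusted p = 0.107), while both alleles of Prps1 kept their calls without each library of the comparison in turn.

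**Figure D2:**
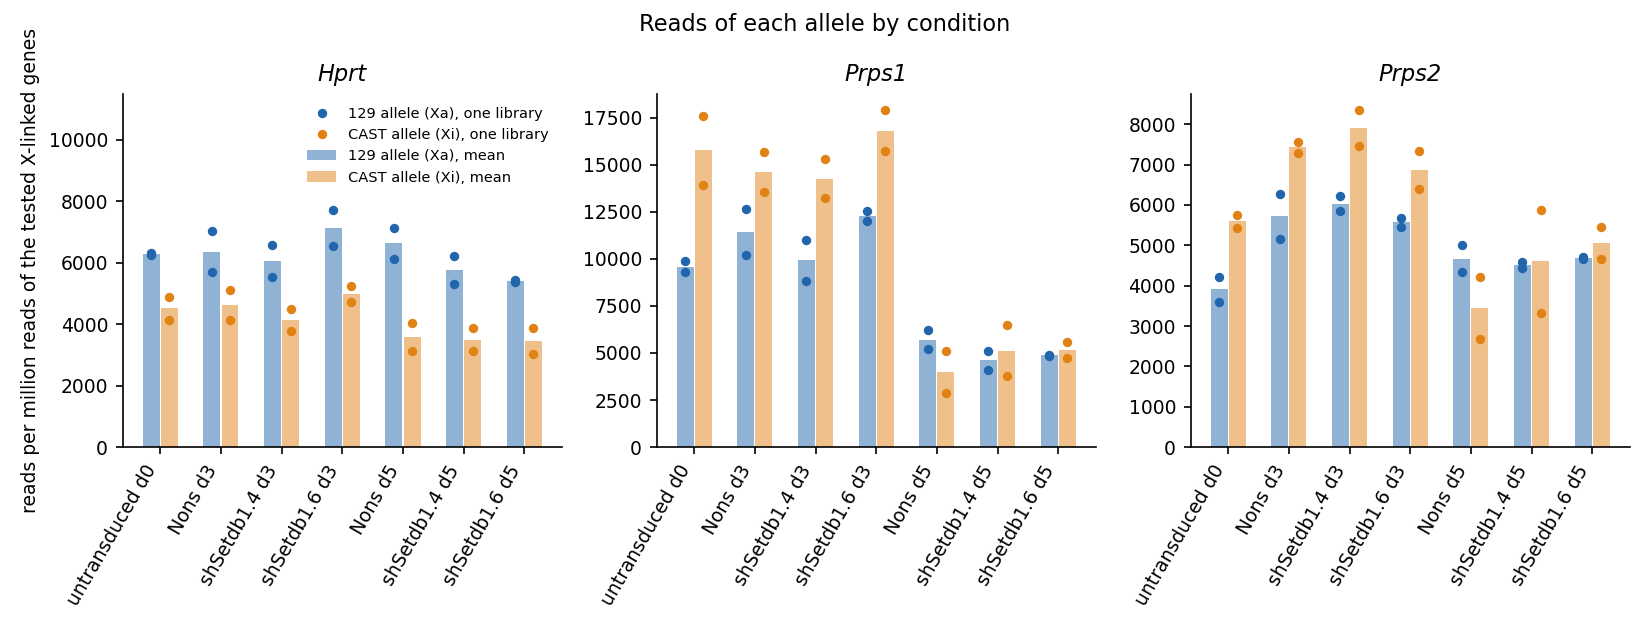
Reads of the 129 allele (blue) and the CAST allele (orange) in CPM by condition for Hprt, Prps1 and Prps2; bars are means of 2 libraries and points are libraries, and the vertical axes start at 0 and differ between genes. Both alleles of Prps1 are lower in every day 5 library than in every day 0 and day 3 library, and the CAST bar is under the 129 bar in Nons day 5.

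At day 5 the Xi/Xa ratio of Prps1 was higher with Setdb1 knockdown than with Nons. The question was whether Setdb1 has a part in the silencing of the Xi. The Prps1 ratio was -0.12 and 0.33 with shSetdb1.4 (288 and 472 reads from 129, 265 and 595 from CAST) and, under shSetdb1.6, -0.05 and 0.20 (466 and 327 reads against 449 and 375). All 4 were above both Nons libraries (-0.85 and -0.28), as for 32.4% of the 247 genes. The Prps2 ratio was -0.42 and 0.36 with shSetdb1.4 (311 and 422 reads against 233 and 541) and, under shSetdb1.6, 0.00 and 0.21 (443 and 318 reads against 443 and 367). With shSetdb1.4 replicate 1 below one of the Nons libraries (-0.69 and -0.25), the Prps2 groups overlapped. The Hprt ratio was -0.997 and -0.45 with shSetdb1.4 and, under shSetdb1.6, -0.84 and -0.46, and it overlapped with Nons (-0.96 and -0.82).

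Over both hairpins the fitted difference from Nons was 0.68 (SE 0.17, edgeR adjusted p = 0.00626) for Prps1. It was 0.54 (SE 0.18, unadjusted p = 0.00268) for Prps2 and did not pass the test (edgeR adjusted p = 0.0517). For Hprt it was 0.21 (SE 0.17, edgeR adjusted p = 0.404). Of the 247 genes 3.64% were called as higher and 0.405% as lower, 62 had an unadjusted p under 0.05, and the median gene differed by 0.35. These 10 calls in both directions went to 0 without the replicate block, 1 after centring on the median gene, 3 without a filter on reads, 5 with DESeq2, 5 with only the libraries compared and 18 with SNPs at least 100 bp apart. A larger difference than that of Prps1 was fitted for 34 genes, than that of Prps2 for 60 and than that of Hprt for 167. The Prps1 call was lost without the replicate block (0.69, edgeR adjusted p = 0.0895), without Nons day 5 replicate 1 (0.49, edgeR adjusted p = 0.356) and without shSetdb1.6 day 5 replicate 1 (0.67, edgeR adjusted p = 0.0802). It was also lost with each library centred on its median gene, where the difference of Prps1 was 0.35 (edgeR adjusted p = 0.241), that of Prps2 was 0.21 (edgeR adjusted p = 0.689) and that of Hprt turned to -0.13 (edgeR adjusted p = 0.815). The Prps2 difference passed the test with a minimum of 30 reads in every library (0.54, edgeR adjusted p = 0.0367), with only SNPs of at least 10 reads in every library (0.54, edgeR adjusted p = 0.0384) and without shSetdb1.4 day 5 replicate 1 (0.69, edgeR adjusted p = 0.00198).

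Within replicates, each hairpin library was set against the Nons library of its number. For Prps1 shSetdb1.4 was higher by 0.73 and 0.61 in replicates 1 and 2 and shSetdb1.6 by 0.80 and 0.48. For Prps2 shSetdb1.4 gave 0.28 and 0.60, and shSetdb1.6 gave 0.69 and 0.45. For Hprt they were -0.04 and 0.37, and 0.12 and 0.36. All 4 differences were above 0 for both PRPP synthetase genes, as for 49.8% of the 247 genes, and 3 of 4 for Hprt, as for 21.5%. These differences share the 2 Nons libraries. The median gene differed by 0.21 and 0.40 with shSetdb1.4 and by 0.38 and 0.26 with shSetdb1.6.

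The hairpins taken singly gave values close to each other. With shSetdb1.4 the difference from Nons at day 5 was 0.70 (SE 0.19, edgeR adjusted p = 0.0603) for Prps1, 0.48 (SE 0.20, edgeR adjusted p = 0.203) for Prps2 and 0.18 (SE 0.20, edgeR adjusted p = 0.588) for Hprt. edgeR called 0 of the 247 genes (0%) for this hairpin, and 56 had an unadjusted p under 0.05. With shSetdb1.6 it was 0.66 (SE 0.19, edgeR adjusted p = 0.0448) for Prps1, 0.59 (SE 0.20, edgeR adjusted p = 0.0718) for Prps2 and 0.24 (SE 0.20, edgeR adjusted p = 0.434) for Hprt, and 0.81% of the genes were called as higher. The Prps1 call for shSetdb1.6 was lost without any 1 of its 4 libraries (edgeR adjusted p between 0.0941 and 0.443), without the replicate block (0.66, edgeR adjusted p = 0.13), with only the libraries compared (0.66, edgeR adjusted p = 0.0539), without a filter on reads (0.66, edgeR adjusted p = 0.0661) and after centring on the median gene (0.32, edgeR adjusted p = 0.35). Nr0b1 had 39.4 and 46.7 of every 100000 reads with shSetdb1.6, 10.6 and 24.2 with shSetdb1.4 and 14.1 and 31.1 with Nons at day 5, from 8 to 39 reads, so both shSetdb1.6 libraries were above both Nons libraries, and its part in the shSetdb1.6 difference was not tested. The Prps1 call for shSetdb1.4 was gained with DESeq2 (0.71, DESeq2 adjusted p = 0.0154). The difference between the hairpins was -0.04 (SE 0.18) for Prps1, 0.11 (SE 0.19) for Prps2 and 0.06 (SE 0.19) for Hprt, each under its standard error.

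The totals of the 3 genes did not pass the test with knockdown. At day 5 the total of Prps1 was 7894 and 11599 CPM with shSetdb1.4 and, under shSetdb1.6, 9620 and 10411 CPM, and Nons (8066 and 11292 CPM) lay within this range. The fitted difference of the totals was 0.04 (SE 0.20) for Prps1, 0.22 (SE 0.17) for Prps2 and -0.17 (SE 0.16) for Hprt, with edgeR adjusted p = 0.986 for each. edgeR called 0 of the 247 totals (0%), and 6 had an unadjusted p under 0.05. By allele, the CAST reads of Prps1 differed by 0.39 (SE 0.26) and its 129 reads by -0.26 (SE 0.17), and neither passed the test (edgeR adjusted p = 0.633 and 0.868). Leaving out 1 library at a time gave 0.012 to 0.84 for the CAST reads and -0.39 to -0.13 for the 129 reads. For Prps2 the CAST reads differed by 0.51 (SE 0.25, edgeR adjusted p = 0.633) and the 129 reads by -0.01 (SE 0.16, edgeR adjusted p = 0.97), and its CAST reads gave 0.20 to 0.85 without 1 library. For Hprt the CAST reads differed by -0.03 (SE 0.21) and the 129 reads by -0.25 (SE 0.17). Single-allele levels depend on the scaling of whole libraries, and the ratio of alleles within a library does not. edgeR called 0.405% of the genes as higher in CAST reads and 0% in 129 reads.

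At day 3 the knockdown made no difference that passed the test in the 3 genes. The Prps1 ratio was 0.47 and 0.58 with shSetdb1.4 and, under shSetdb1.6, 0.32 and 0.57, against 0.31 and 0.41 with Nons. The Prps2 ratio was 0.26 and 0.51 with shSetdb1.4 and, under shSetdb1.6, 0.17 and 0.43, against 0.55 and 0.22. The Hprt ratio was -0.55 and -0.55 with shSetdb1.4 and, under shSetdb1.6, -0.70 and -0.32, against -0.46 and -0.46. Each gene's hairpin and Nons libraries overlapped. The fitted difference was 0.13 (SE 0.15) for Prps1, -0.02 (SE 0.16) for Prps2 and -0.07 (SE 0.17) for Hprt, with edgeR adjusted p = 0.985 for each. edgeR called 0 of the 247 ratios (0%) and 0 of the 247 totals (0%) at day 3, where 7 ratios and 4 totals had an unadjusted p under 0.05. The knockdown difference at day 5 exceeded that at day 3 by 0.55 (SE 0.22, unadjusted p = 0.013, edgeR adjusted p = 0.322) for Prps1, 0.55 (SE 0.24, unadjusted p = 0.0223, edgeR adjusted p = 0.347) for Prps2 and 0.27 (SE 0.24, edgeR adjusted p = 0.539) for Hprt. These did not pass the test, so a change of the knockdown difference between the days was not shown for any of the 3 genes. 0.405% of the genes were called in each direction.

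In the knockdown cells themselves the Prps1 ratio still fell from day 3 to day 5. The difference over both hairpins was -0.39 (SE 0.12, edgeR adjusted p = 0.0232) for Prps1, -0.29 (SE 0.14, edgeR adjusted p = 0.18) for Prps2 and -0.16 (SE 0.14, edgeR adjusted p = 0.608) for Hprt. All 4 Prps1 libraries of day 5 were at or below 0.33 and 3 of the 4 of day 3 were above it, with shSetdb1.6 day 3 replicate 1 at 0.32, so the days overlapped. The median gene changed by -0.01, with 6.07% of the genes called as lower and 4.45% as higher. The Prps1 call was lost without the replicate block (-0.39, edgeR adjusted p = 0.112), when only the libraries compared were fitted (-0.39, edgeR adjusted p = 0.0557) and without 5 of its 8 libraries in turn (edgeR adjusted p between 0.0789 and 0.14). These 5 were shSetdb1.4 day 3 replicate 1 and the shSetdb1.6 libraries of both days and both replicates.

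**Figure D3:**
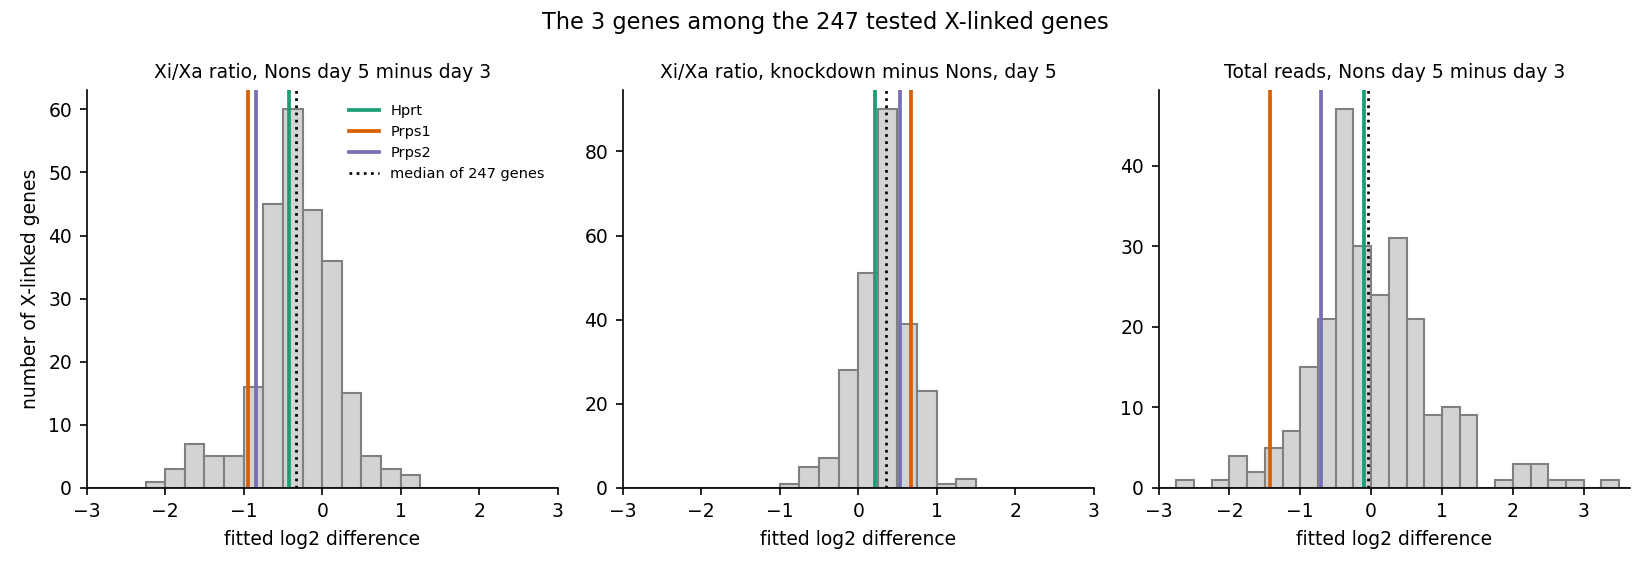
Number of the 247 tested X-linked genes (vertical axis) by fitted log2 difference (horizontal axis) for the ratio in Nons from day 3 to day 5, the ratio with knockdown at day 5 and the total in Nons from day 3 to day 5; coloured lines mark Hprt, Prps1 and Prps2 and the dotted line the median gene. Prps1 and Prps2 lie on the same side of the median as each other in each panel, and Hprt is close to the median in the first and the last.

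The SNPs of Prps1 changed in one direction. Its 6 SNPs had 40 to 511 reads in a library, and all 6 had a lower ratio at day 5 than at day 3 in both Nons replicates, by between -1.12 and -0.70. With knockdown at day 5 all 6 were higher on average, by between 0.45 and 0.97, and 5 of 6 were higher in all 4 pairs of a hairpin and a Nons library (23 of 24 pairs over the 6 SNPs). The CAST share of reads pooled over the libraries was between 51.7% and 61.1% at these SNPs. G140475799A was the 1 SNP that was higher in 3 of the 4 pairs. SNPs of 1 gene share reads and cells and are not replicates. Shares over the SNPs of all genes are not given here. At the level of genes, both Nons day 5 libraries were below both day 3 libraries for 46.6% of the 247 genes. All 4 hairpin pairs were higher for 49.8%.

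The 10 SNPs of Prps2 had 16 to 137 reads in a library and varied more. At day 5 in Nons 8 of 10 were lower than at day 3 in both replicates, with mean differences between -1.55 and -0.16. With knockdown the mean difference ranged from -0.14 to 1.20, and 29 of 40 pairs were higher. Among the 247 tested genes, 175 and 195 were higher with shSetdb1.4 in replicates 1 and 2, and 210 and 179 with shSetdb1.6. A higher ratio was thus common to most tested genes, and the 29 of 40 does not set Prps2 apart. A167348729C, T167348732C and G167348764C lie within 1 read length of 100 bases, so the same read can count at each. The coding SNP T167374099C in exon 2 had the smallest values in both comparisons (-0.16 and -0.14). Its exon 2 neighbour, A167374153G, changed by -0.71 and 0.55. These SNPs had 25 to 105 reads in a library, so a single SNP is imprecise.

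**Figure D4:**
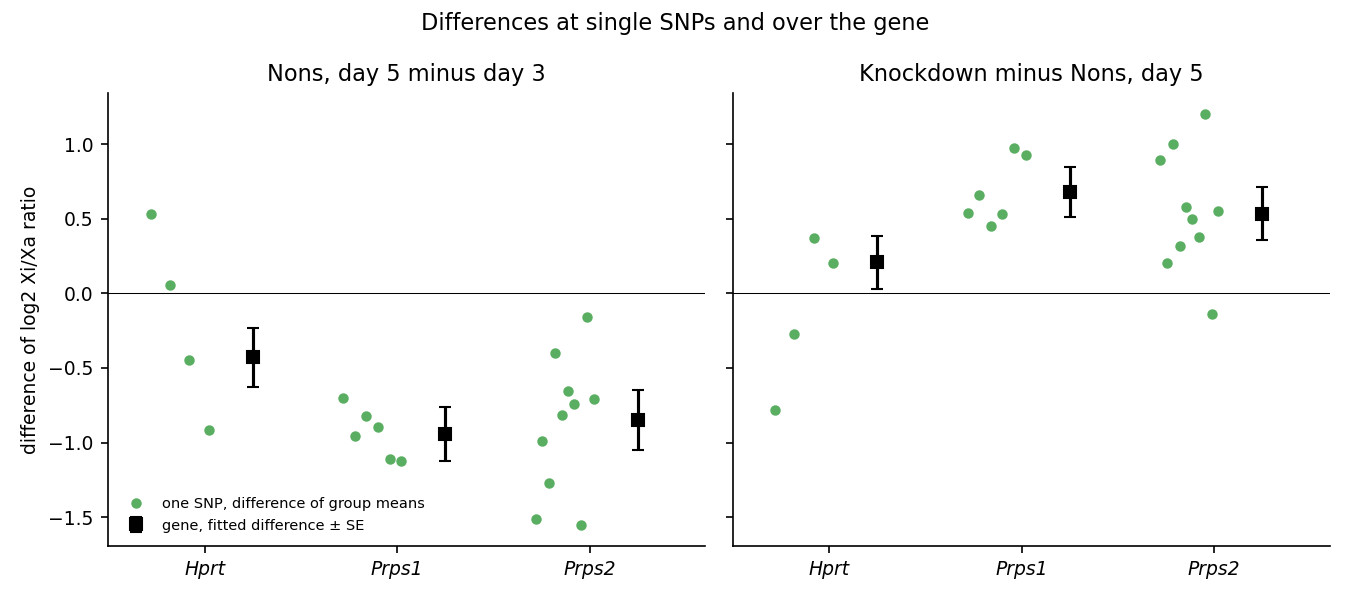
Difference of the log2 Xi/Xa ratio (vertical axis) for Nons from day 3 to day 5 and for knockdown against Nons at day 5; green points are single SNPs ordered by genome position within a gene, and black squares are the fitted gene values with SE. The 6 SNPs of Prps1 lie on one side of 0 in each panel, and the 4 SNPs of Hprt lie on both sides.

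Hprt differed from the other genes in that its SNPs disagreed with each other along the message. From the 5′ end to the 3′ end the pooled CAST share was 19.8% at G52988159A, 29.7% at C52988227G, 42.0% at A53016370G and 48.9% at G53021504C. Both exon 1 SNPs had a lower CAST share than both other SNPs in 14 of 14 libraries, and the full order held in 13 of 14. The last SNP exceeded the first by 10.4 to 44.1 percentage points (median 26.1). On the log2 scale the pooled ratios of the 4 SNPs spanned 1.95, against a median span of 0.73 over 114 genes with at least 4 SNPs of at least 200 reads each. A larger span was found in 8 of them, and the spans of Prps1 and Prps2 were 0.56 and 0.72. The order was present at day 0, where the mean CAST share was 24.8%, 33.4%, 43.9% and 51.5% at the 4 SNPs. The first SNP lies 23 bases into the transcript and had 39 to 83 reads in a library, fewer than the exon 6 SNP with 155 to 419. The part of the few reads at the 5′ end in this order was not tested.

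**Figure D5:**
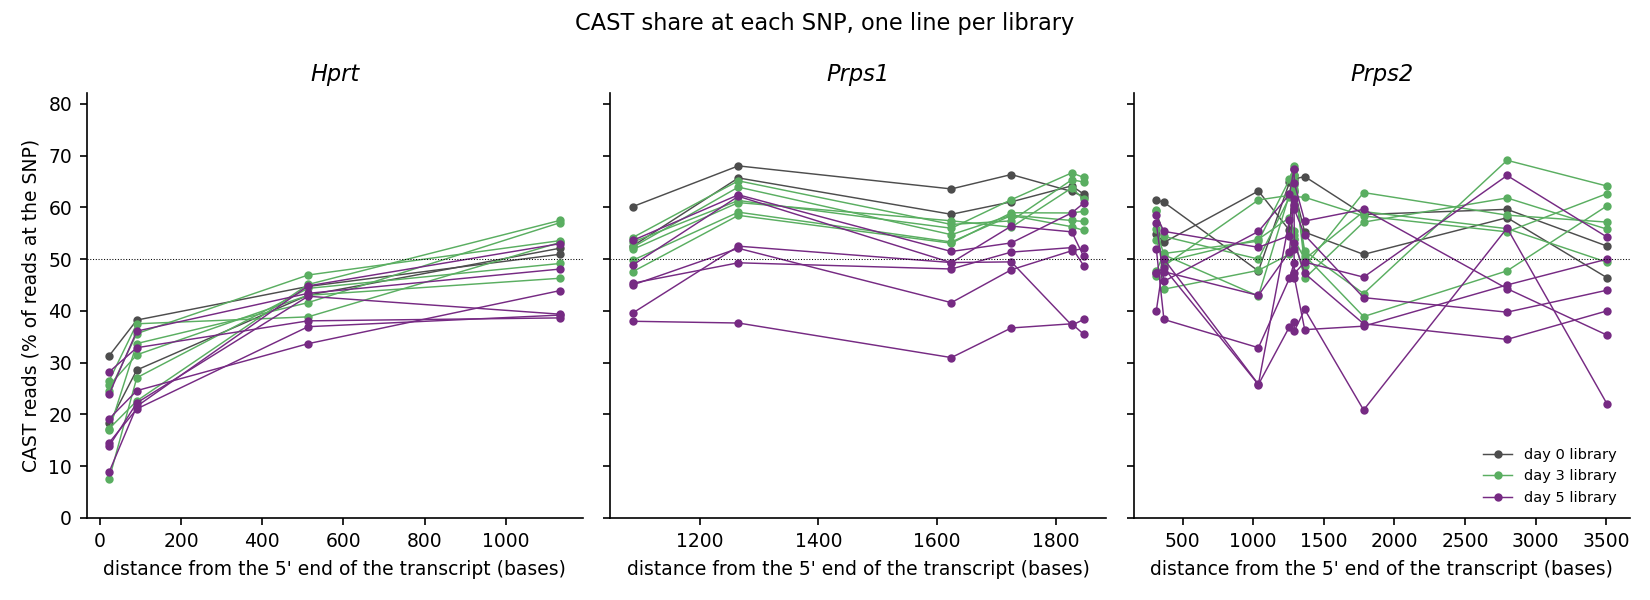
CAST share of the reads at each SNP (vertical axis, per cent) by distance from the 5′ end of the transcript (horizontal axis, bases) for Hprt, Prps1 and Prps2; each line is a library, coloured by day, and the dotted line marks equal reads. In Hprt the share goes up from the exon 1 SNPs to the last exon in 14 of 14 libraries.

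The mean differences at the 4 SNPs of Hprt between conditions were not of 1 sign, which was not tested. In Nons from day 3 to day 5 the ratio changed by 0.54 and 0.05 at the exon 1 SNPs and by -0.45 and -0.92 at the exon 6 and exon 9 SNPs. The 0.05 at C52988227G is a mean of opposite changes, as its log2 ratio went from -0.96 to -1.59 in replicate 1 and from -1.74 to -1.0 in replicate 2. With knockdown at day 5 the exon 1 SNPs differed by -0.78 and -0.27 and the other SNPs by 0.37 and 0.20. At the exon 6 SNP, the deepest, the CAST share was 33.7% and 38.1% in Nons day 5, 36.9% and 44.8% with shSetdb1.4 and, under shSetdb1.6, 42.8% and 43.4%, and each hairpin library was above the Nons library of its number. At the exon 9 SNP it was 43.9% and 38.6% in Nons, 39.2% and 53.0% with shSetdb1.4 and, under shSetdb1.6, 39.4% and 48.1%, so the hairpin libraries were above Nons in replicate 2 and below it in replicate 1. At the first SNP it was 19.1% and 28.2% in Nons day 5, from 9 and 11 CAST reads, against 8.9% to 23.9% with the hairpins, from 4 to 11 CAST reads. At C52988227G it was 24.6% and 32.9% in Nons day 5, 21.1% and 21.6% with shSetdb1.4 and, under shSetdb1.6, 22.2% and 36.1%, so that shSetdb1.6 replicate 2 was above both Nons libraries and the other 3 were below both. Without the exon 1 SNPs the knockdown difference of Hprt at day 5 was 0.33 (SE 0.19, edgeR adjusted p = 0.218), still short of the test.

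Within a library the ratio of Hprt was below those of the PRPP synthetase genes. The Prps1 ratio exceeded that of Hprt by 0.85 ± 0.30 (SD over 14 libraries), and it was higher in 14 of 14. These libraries come from 7 conditions, and the excess was 0.96 and 1.42 at day 0, 0.77 and 0.87 in Nons day 3, and 0.11 and 0.54 in Nons day 5. The Prps2 ratio exceeded that of Hprt by 0.78 ± 0.23, and it was higher in 14 of 14. Its excess was 0.82 and 1.18 at day 0, 1.01 and 0.67 in Nons day 3, and 0.27 and 0.58 in Nons day 5. Both excesses were smaller in the Nons libraries of day 5 than in those of day 3 and day 0. Prps2 differed from Prps1 by -0.07 ± 0.16 and was higher in 6 of 14. In an exact sign-flip permutation test over the 14 libraries, two-sided and adjusted over the 3 pairs, both differences from Hprt had an adjusted p of 0.000183, from the smallest p the test allows, and the difference of Prps2 from Prps1 had 0.139. The test takes the 14 libraries as independent, although they share 7 conditions and 1 cell line. The paper describes 2 independent experiments sampled over the days, so the p-value overstates the number of independent units. Without the exon 1 SNPs of Hprt the differences were 0.58 and 0.52 (adjusted permutation p = 0.000366 each), and Prps1 was higher in 13 of 14, with a difference of -0.074 in Nons day 5 replicate 1. With the median over the SNPs of a gene in place of their sum, Prps2 differed from Prps1 by -0.10 and passed the test (adjusted permutation p = 0.0385).

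Across the libraries the gene with the ratio most like that of Prps1 was Prps2 (Pearson r = 0.93 over 14 libraries), and the reverse also held. The next were Maged1 (r = 0.91 with Prps1 and 0.88 with Prps2) and Utp14a (r = 0.90 and 0.88). For Hprt the closest was Prps2 (r = 0.85), and Maged1 was also among the first 3 (r = 0.81). The median gene had r = 0.31 with Prps1, 0.34 with Prps2 and 0.35 with Hprt. The points share the days, the hairpins and the depth of the libraries, so r is given as a description.

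The genes next to them on the chromosome did not all do the same. Within 2 Mb, 6 tested genes flank Hprt, 6 Prps1 and 5 Prps2. In Nons from day 3 to day 5 the median ratio difference of the neighbours was -0.26 for Prps1 (range -1.29 to 0.86) and -0.18 for Prps2 (range -0.37 to 0.13). The difference of Prps2 was below those of all its 5 neighbours. The neighbours of Hprt had a median of -0.58 (range -1.18 to -0.20), beyond the -0.43 of Hprt, and the median over the 247 genes was -0.33. With knockdown at day 5 the neighbours had medians of 0.51 (Hprt), 0.38 (Prps1) and 0.35 (Prps2), and edgeR called 0, 1 and 0 of them. Over the 247 genes the median was 0.35, with 3.64% called as higher and 0.405% as lower.

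Other X-linked genes of pentose phosphate, nucleotide and energy metabolism were taken as a list of 8, of which 4 were tested. They were G6pdx, the first enzyme of the pentose phosphate pathway that supplies ribose 5-phosphate, Ctps2, a CTP synthetase, Nudt11, a diphosphoinositol polyphosphate phosphohydrolase, and Pgk1, a glycolytic kinase. From day 3 to day 5 in Nons their ratios differed by -0.33 (G6pdx), -0.78 (Ctps2), -0.21 (Nudt11) and -0.26 (Pgk1), with 0 of 4 called (9.72% of the 247 genes were called as lower) and a median of -0.30. With knockdown at day 5 they differed by 0.49, 0.43, -0.05 and 0.11, again with 0 of 4 called (3.64% of all were called as higher) and a median of 0.27. Of their totals 2 of 4 were called as higher from day 3 to day 5 and 0 of 4 as lower, against 14.6% and 13.4% of the 247 genes. Ctps2 rose by 1.48 (SE 0.25, edgeR adjusted p = 9.21e-04) and Nudt11 by 1.16 (SE 0.39, edgeR adjusted p = 0.0379), while G6pdx differed by 0.38 (SE 0.21, edgeR adjusted p = 0.189) and Pgk1 by 0.42 (SE 0.33, edgeR adjusted p = 0.34). Nudt11 had 2 SNPs and 10 to 48 reads in a library, at the floor of the filter, and Pgk1 also had 2 SNPs. At day 0 the allele ratio of Pgk1 was 1.92 (SE 0.24, edgeR adjusted p = 3.29e-13), and it was the 1 of the 4 called, against 8.1% of the 247 genes called with a CAST excess and 14.2% with a 129 excess.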

How the data were processed

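Per the study's methods, the authors aligned single-end reads of 100 bases to mm10 by Subread, then counted the 129 and CAST bases at X-linked SNPs with samtools pileup. The part of mapping to a genome with reference bases in the allele ratios was not tested. The submitters' notes also name CASAVA 1.8.2. The deposited values are raw counts of reads per allele and SNP, without normalization, and replicates were not pooled. Left out were 4 count columns, named Day3_Un, that match no sample label. Sources differ on the day of transduction, which is day 0 or the following day in the paper and 2 in the labels. They also differ on the dams, 129 in the paper and 129/C57 in the labels. Reads called 129 here are those with the reference base, and whether some come from C57 sequence was not tested.

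SNPs were assigned by GENCODE M21 exons (mm10) and counts were summed per gene. A read over several SNPs is counted at each. Of the SNPs, 31 lay in exons of 2 genes and 35 outside exons. Ratios were fitted in edgeR 4.0.16 (R 4.3.3) on the 28 allele columns, with a term per library, an allele effect per condition and one for the replicate number, because the paper compares hairpins with Nons within replicates. In the ratios, same-numbered libraries correlated at 0.051 on average, over 0.1 in 7 of 21 pairs of conditions, and in the totals at 0.208, over 0.1 in 17 of 21. Totals used TMM and no block. Both covered 247 genes, with Benjamini-Hochberg adjustment and a threshold of 0.05. CPM were computed from the deposited counts. Python 3.11.15, numpy 2.4.6, pandas 2.3.3 and scipy 1.17.1 did the rest. Both models were also run on simulated counts, whose outcome is not given here and is not used as support. Alternatives used DESeq2 1.42.0, other filters, SNP sets and scalings, and left out each library.

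The 3 genes, the lists and the tests were chosen with earlier results of these data known. Genes named for likeness are among the 3 with the highest r (1 gene and 1 sequence are not reported here), and those of the pathway list are all its tested members. Counting intervals cover neither mapping nor duplicates.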

Additional observations from a re-analysis of the deposited data

How the results depend on the processing

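Of 636 recalculations of 57 results, 543 kept the direction and the side of the threshold. With 2 libraries per condition 1 library can decide a call, and Nons day 5 replicate 2 had the fewest reads of all libraries. The allele fit at day 0 with only its own libraries has no residual degrees of freedom and was not run. The cause was not tested for any change given here. All values are log2 differences, or log2 ratios at day 0.

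Without the replicate block the calls of Prps1 were lost for knockdown at day 5 (0.69), shSetdb1.6 (0.66) and knockdown from day 3 to day 5 (-0.39), and the block changed no other call of the 3 genes. The genes called for knockdown at day 5 went from 10 to 0 without it, and same-numbered libraries correlated weakly in ratios. Centred on the median gene, the Prps1 difference was -0.45 from day 0 to day 3 (gained), 0.35 for knockdown at day 5 and 0.32 for shSetdb1.6 (both lost), and Prps2 was -0.30 for knockdown from day 3 to day 5 (gained). Hprt then turned to -0.082 from day 0 to day 3, -0.13 for knockdown at day 5, -0.14 and -0.11 for shSetdb1.4 and shSetdb1.6, and -0.09 for the knockdown difference between days, and Prps2 turned to 0.017 for knockdown at day 3. With only the libraries compared, calls were lost for Prps2 in Nons from day 3 to day 5 (-0.88), Prps1 with shSetdb1.6 (0.66) and Prps1 in knockdown from day 3 to day 5 (-0.39). Without a filter on reads Prps1 with shSetdb1.6 was lost (0.66). Calls were gained for Prps1 with shSetdb1.4 by DESeq2 (0.71), with at least 30 reads (0.70) and with SNPs of at least 10 reads (0.70). They were gained for Prps2 with knockdown at day 5 with at least 30 reads (0.54) and SNPs of at least 10 reads (0.54), and with shSetdb1.6 for SNPs at least 100 bp apart (0.62). The day 0 ratio of Hprt without its exon 1 SNPs, chosen after the data were seen, was -0.21 (lost), and the median over SNPs gave -0.10 for Prps2 minus Prps1 (gained).

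The genes called for the ratio with knockdown at day 5 were 10 in the text, 5 with DESeq2, 1 after centring, 3 without a filter, 18 with SNPs at least 100 bp apart and 5 with only the libraries compared. For Nons from day 3 to day 5 they were 25 in the text, 9 with SNPs of at least 10 reads and 7 with only the libraries compared. For knockdown from day 3 to day 5 they were 26, against 16 without the replicate block, 14 with DESeq2 and 13 with SNPs of at least 10 reads. The totals called from day 0 to day 3 went from 24 to 38 with the replicate block.

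Totals near 0 changed sign. With library sizes alone they were -0.060 for Hprt and -0.044 for Prps1 from day 0 to day 3, -0.0063 for Prps2 with knockdown at day 3 and -0.025 for Prps1 at day 5. Without a filter they were -0.0082 for Hprt and -0.020 for Prps2 at day 3 and -0.027 for Prps1 at day 5. SNPs at least 100 bp apart gave -0.029 for Prps1 from day 0 to day 3 and -0.0025 for Hprt with knockdown at day 3, and DESeq2 gave -0.0048 for Prps2.

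Leaving out each library in turn changed a call or direction in 33 of 54 results, with these ranges. For Prps1 ratios they were -1.10 to -0.76 in Nons from day 3 to day 5, 0.49 to 0.83 with knockdown at day 5, 0.51 to 0.86 with shSetdb1.4, 0.47 to 0.81 with shSetdb1.6, -0.15 to 0.076 between hairpins, -0.45 to -0.34 for knockdown from day 3 to day 5 and 0.36 to 0.70 for the knockdown difference between days. For Prps2 ratios they were 0.47 to 0.58 at day 0, -0.48 to 0.20 from day 0 to day 3, -1.20 to -0.52 in Nons from day 3 to day 5, -0.38 to 0.30 with knockdown at day 3, 0.38 to 0.69 at day 5, 0.16 to 0.79 with shSetdb1.4, -0.19 to 0.45 between hairpins, -0.47 to -0.15 for knockdown from day 3 to day 5 and 0.23 to 0.91 for the knockdown difference between days. For Hprt ratios they were -0.71 to -0.25 at day 0, -0.21 to 0.25 from day 0 to day 3, -0.17 to 0.031 with knockdown at day 3, -0.049 to 0.40 with shSetdb1.4 and -0.16 to 0.29 between hairpins. For totals from day 0 to day 3 they were -0.13 to 0.17 (Hprt) and -0.10 to 0.16 (Prps1), and from day 3 to day 5 -0.25 to 0.051 (Hprt) and -0.91 to -0.51 (Prps2). For totals with knockdown they were -0.13 to 0.17 (Hprt), -0.094 to 0.16 (Prps1) and -0.045 to 0.049 (Prps2) at day 3 and -0.19 to 0.29 (Prps1) at day 5. For single alleles they were -0.086 to 0.22 (Hprt 129 reads) and -1.47 to -0.82 (Prps2 CAST reads) in Nons from day 3 to day 5, and -0.21 to 0.15 (Hprt CAST reads) and -0.12 to 0.088 (Prps2 129 reads) with knockdown at day 5. Another 13 results, none of them called, kept their direction and moved by over 1.5 times, of which 8 were totals or single alleles. Of these, totals with knockdown at day 5 were -0.30 to -0.033 (Hprt) and 0.032 to 0.43 (Prps2), 129 reads -0.36 to -0.14 (Hprt) and -0.39 to -0.13 (Prps1), and CAST reads 0.012 to 0.84 (Prps1) and 0.20 to 0.85 (Prps2), while in Nons from day 3 to day 5 the 129 reads of Prps2 were -0.43 to -0.15 and the CAST reads of Hprt -0.55 to -0.20. The 5 ratios were Prps1 with knockdown at day 3 (0.027 to 0.23) and, for Hprt, knockdown at day 5 (0.095 to 0.32), shSetdb1.6 (0.13 to 0.36), knockdown from day 3 to day 5 (-0.28 to -0.055) and the knockdown difference between days (0.16 to 0.38).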
